A study of Mus musculus with 6 samples.

Results

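Lactate leaves and enters muscle fibres through monocarboxylate transporters, and lactate dehydrogenases interconvert it with pyruvate. The 9 genes described here were taken by symbol from the count table: the transporter genes Slc16a1 (MCT1), Slc16a3 (MCT4), Slc16a7 (MCT2) and Slc16a10 (MCT10), their chaperones Bsg (basigin) and Emb (embigin), and the lactate dehydrogenase genes Ldha, Ldhb and Ldhd. All 9 were among the 34714 symbols of the table, and all 9 were among the 15788 genes that passed the filter on low counts. Libraries were sequenced from gastrocnemius (Gas) RNA of 3 WT mice and 3 M92KO mice, 1 library per sample. All mice were 8 weeks old and untreated and were kept on a standard diet. The study's methods describe an overnight fast before muscle was collected from mice after treatment or training, and do not say whether it applied to the sequenced, untreated mice. The M92KO mice carried a global deletion of miR-92b on a C57BL/6JGpt background, so miR-92b was missing in every tissue and not only in muscle fibres. The study's methods describe male knockout mice and age-matched C57BL/6 WT controls, which were not stated to be littermates, so a difference between the substrains cannot be told apart from the deletion. The table used here has no row for the deleted gene, so the genotype of a library could not be checked from it.

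Monocarboxylate transporters move lactate or pyruvate together with a proton, and the direction follows the gradient. MCT4 is the carrier that fast glycolytic fibres are known to use for lactate export, while MCT1 is more abundant in oxidative fibres and takes lactate up. MCT2 has a high affinity for its substrates and is scarce in mouse muscle, and MCT10 carries aromatic amino acids and thyroid hormone rather than lactate. Basigin takes MCT1 and MCT4 to the plasma membrane, and embigin does the same for MCT2. The Ldha subunit is typical of glycolytic fibres and Ldhb of oxidative ones, and Ldhd acts on D-lactate in mitochondria.

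A miRNA pairs with target RNAs mainly through its seed, bases 2 to 8 from its 5′ end. The pair of mature products of the deleted gene are shown because the seed of each was searched for in the 9 genes. Both lie on the minus strand of GRCm38.p6 (RefSeq), at chr3:89227126-89227147 for miR-92b-3p and chr3:89227165-89227188 for miR-92b-5p, and capitals mark the seed.
miR-92b-3p: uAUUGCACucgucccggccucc
miR-92b-5p: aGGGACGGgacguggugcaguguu

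The complete annotated 3′-UTRs of each gene (GENCODE M21, GRCm38) were searched on the sense strand for the reverse complement of the seed. For miR-92b-3p a match of 8 bases is GTGCAATA, matches of 7 bases are GTGCAAT and TGCAATA, and a match of 6 bases is TGCAAT, each longer match containing the 6-base one. Of the 9 genes, 4 held a match of 7 or 8 bases, against 14.5% of 13664 tested genes with a 3′-UTR. Slc16a1 held 2, at chr3:104657492-104657513 and chr3:104657803-104657824. Slc16a7 held the only match of 8 bases, at chr10:125219655-125219676 on the minus strand, a kind found in 2.87% of the genes. It was in 1 of the 4 UTRs of Slc16a7, which had 525 to 8742 bases. Slc16a10 held 1, at chr10:40033548-40033569 on the minus strand, in 1 of its 2 UTRs (1143 to 3640 bases). Ldha held 1, at chr7:46855533-46855554, in 4 of its 5 UTRs. The windows are written in the direction of the transcript, with the match in capitals.
Slc16a1 first site: aaccacctTGCAATAtaaagtg
Slc16a1 second site: gccaaaacTGCAATAaaactgg
Slc16a7 site: gggaacaGTGCAATAaaattag
Slc16a10 site: tcagtaaaTGCAATAaaatttt
Ldha site: gtgtgcatTGCAATAttatgtg

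For miR-92b-5p the letters searched were CCGTCCCA for 8 bases, CCGTCCC and CGTCCCA for 7, and CGTCCC for 6. None of the 9 genes had a match of 6 or more bases to this seed, a match that 10.2% of the genes with a 3′-UTR had. The search covered 3 annotated 3′-UTRs of Slc16a3, of 643 to 2736 bases, and it found no match of 6 or more bases to either seed there. The other genes with no match to either seed were Bsg, Emb, Ldhb and Ldhd. The study names Slc16a3 a potential target of miR-92b-5p. It reports that a miR-92b-5p mimic lowered a reporter with the 3′-UTR of this gene in C2C12 cells, but not a mutated one. A missing match says only that these letters are not in the annotated UTRs searched, and pairing outside the seed was not searched.

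Total counts lay between 38246649 and 48209846 in WT libraries and between 33160508 and 37019640 in M92KO libraries, so the M92KO libraries were all shallower. In pairs of replicates, M92KO replicate 1 differed from M92KO replicates 2 and 3 by a chi-square of 58.8 and 58.5 per degree of freedom over genes, against 11.2 between replicates 2 and 3 and 12.9 to 29.7 among the WT libraries. Results that turn on M92KO replicate 1 are therefore given with and without it. Levels are in CPM, which relates a count to the TMM-scaled size of its library, and differences are edgeR log2 fold changes of M92KO over WT with their SE, tested by edgeR's quasi-likelihood test with Benjamini-Hochberg adjustment over all 15788 genes. The labels do not say whether the samples of a group came from separate litters or cages, so a p-value covers only the spread between these samples. For a single value, an exact permutation test of 3 samples against 3 cannot give a two-sided p below 0.1.

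None of the 9 genes had an adjusted p under 0.05 by edgeR, and neither did any of the 15788 genes (0.0%). At an unadjusted p under 0.05, 1 of the 9 was higher (Slc16a3) and 1 was lower (Emb), against 5.47% of all genes higher and 6.92% lower. The same pair were the only members whose 3 M92KO values did not overlap the 3 WT values, against 8.77% of all genes not overlapping and higher, 9.58% not overlapping and lower and 18.4% either way. After the correction of each library for GC content and transcript length, 1 member was again higher and 1 lower at an unadjusted p under 0.05, against 13.1% of all genes in either direction. By DESeq2's Wald test, 1 of the 9 had an adjusted p under 0.05 (Slc16a3), against 1.95% of all genes. Without M92KO replicate 1, edgeR called 2 of the 9 (Slc16a3 higher and Slc16a10 lower), against 2.5% of 16058 genes, and the same 2 were the members with an unadjusted p under 0.05, against 18.6% of the genes. The median log2 fold change of the 9 genes was 0.07, and the quartiles of all genes were -0.14 and 0.11.

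**Figure D1:**
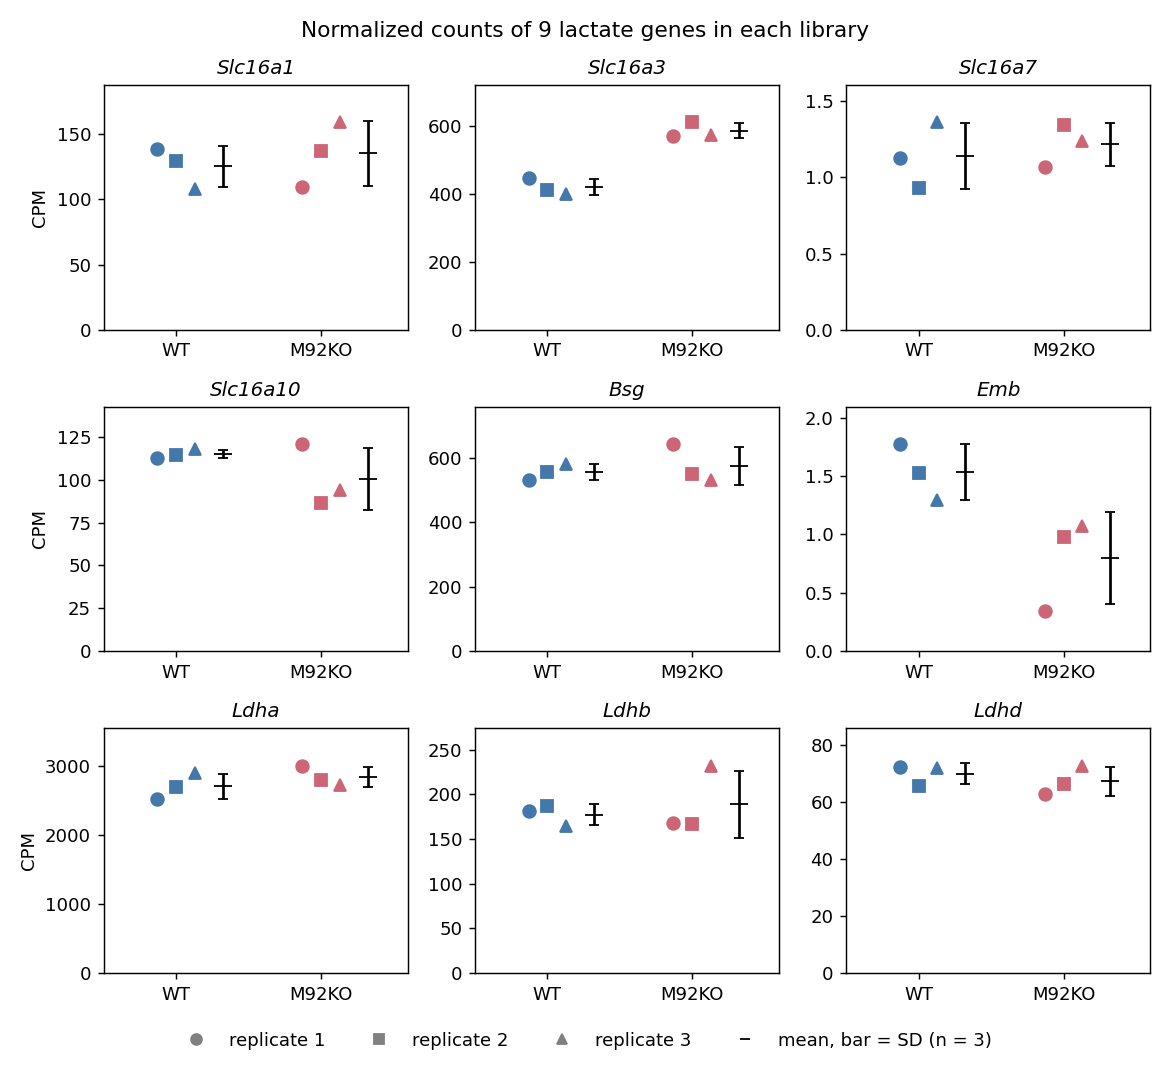
Level of each of the 9 genes in CPM (vertical axes, each starting at 0) in the 3 WT (blue) and 3 M92KO (red) libraries, with the marker shape giving the replicate and the black bar the mean and SD (n = 3). The 3 M92KO values lie above the WT values for Slc16a3 (571 to 611 against 401 to 447 CPM) and below them for Emb (0.346 to 1.07 against 1.30 to 1.77 CPM), and overlap them in the other 7 panels.

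Slc16a3 encodes MCT4, the lactate exporter of glycolytic fibres, and is the member that the study picked out from these same libraries, so its difference here is not independent evidence. The study also reports higher MCT4 RNA by qPCR and higher MCT4 protein in M92KO Gas, assays that were not used here. Its level was 447, 411 and 401 CPM in WT mice and 571, 611 and 575 CPM in M92KO mice. Every M92KO library lay above every WT library, and the mean was 419.7 ± 23.9 CPM in WT and 586 ± 22.2 CPM in M92KO mice (SD, n = 3). The coefficient of variation within a group was 5.69% in WT and 3.79% in M92KO mice, against a fitted difference of 39.6%. The log2 fold change was 0.48 ± 0.073 (SE, 95% interval 0.31 to 0.65), with an edgeR adjusted p of 0.165 and an exact permutation p of 0.1, the smallest possible. Ordered by the size of the p, it was number 9 of the 15788 genes.

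The size of the Slc16a3 difference varied little when a library was left out, between 0.45 and 0.53 on the log2 scale over the 6 libraries. Its adjusted p did vary, from 0.0102 without M92KO replicate 1 to 0.555 without WT replicate 2. By DESeq2's Wald test on the same counts the adjusted p was 5.37e-06. With the steps of the study (quantile normalization, log2 of the count plus 1, limma) the difference was 0.42 on that scale, with a limma adjusted p of 0.277. The gene spans chr11:120948480-120960868 on the plus strand (GRCm38), and none of the 50-base stretches of its longest coding transcript recurs in another annotated gene.

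**Figure D2:**
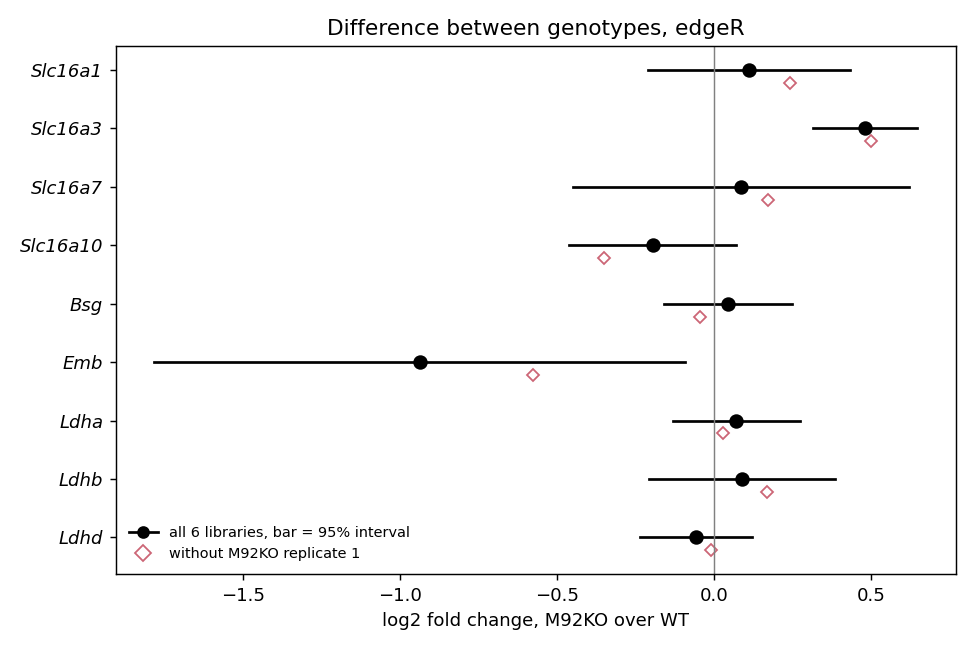
Log2 fold change of M92KO over WT for the 9 genes (horizontal axis), fitted by edgeR on all 6 libraries (black points, bars are 95% intervals) and without M92KO replicate 1 (open red diamonds). The interval lies above 0 for Slc16a3 (0.31 to 0.65) and below 0 for Emb (-1.78 to -0.09), and Slc16a10 moves from -0.19 to -0.35 without that library.

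Slc16a1 encodes MCT1, the carrier of oxidative fibres, endothelium and many other cells. Its level was 138, 129.7 and 108 CPM in WT mice and 109.7, 137 and 159 CPM in M92KO mice. The groups overlapped, with M92KO replicate 1 near the lowest WT library and M92KO replicate 3 above every WT library. M92KO over WT, the log2 fold change was 0.11 ± 0.14 (SE, 95% interval -0.21 to 0.43, edgeR adjusted p = 0.804). Its sign rested on M92KO replicate 3, without which the value was -0.021. The interval holds differences from 0.864-fold to 1.35-fold, and its upper end lies below the fitted value of Slc16a3. The gene lies at chr3:104638668-104658462 on the plus strand.

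Slc16a10 encodes MCT10, an amino acid and thyroid hormone carrier of the same family. Its level was 113, 114 and 118 CPM in WT mice and 121, 86.5 and 93.7 CPM in M92KO mice. The M92KO libraries were split, with replicate 1 above every WT library and replicates 2 and 3 below them all. The log2 fold change was -0.19 ± 0.12 (SE, 95% interval -0.46 to 0.07, edgeR adjusted p = 0.557). Without M92KO replicate 1 it was -0.35 with an edgeR adjusted p of 0.0292, so this library decided the call. Leaving out either of the other M92KO libraries gave -0.10 and -0.15. After correction of each library for GC content and transcript length the value was -0.13. The gene lies at chr10:40033532-40142258 on the minus strand.

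Slc16a7 encodes MCT2 and was at a low level, with counts of 52, 36 and 65 in WT against 37, 44 and 45 in M92KO mice. These counts correspond to 1.13, 0.932 and 1.36 CPM in WT and 1.07, 1.34 and 1.24 CPM in M92KO mice, where 3 counts amount to at most 0.0905 CPM. The M92KO values all lay within the range of the WT values. This gave a log2 fold change of 0.09 ± 0.23 (SE, 95% interval -0.45 to 0.62, edgeR adjusted p = 0.921), and without WT replicate 2 it was -0.034. A difference of the size seen for Slc16a3 lies inside this interval, as does 0, so these values do not separate the 2. Among the other 8 members, 7 had an interval that ended below the fitted value of Slc16a3, and Slc16a7 was the exception. It lies at chr10:125219270-125389465 on the minus strand, and 0.192% of the 50-base stretches of its long transcript recur in other genes. Its exons overlap those of Gm47862 on the opposite strand, whose reads cannot be separated if the counting ignored strand.

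Bsg encodes basigin, the partner that MCT1 and MCT4 need to reach the membrane. Its level was 531, 556 and 580.2 CPM in WT mice and 642, 547 and 532 CPM in M92KO mice. M92KO replicate 1 was the highest of all 6 libraries, and the other M92KO libraries lay among the WT values. Its fitted log2 fold change was 0.05 ± 0.089 (SE, 95% interval -0.16 to 0.25, edgeR adjusted p = 0.879), and without M92KO replicate 1 it was -0.043. Its sign also turned with the limma steps of the study, to -0.0093. Bsg lies at chr10:79704491-79711969 on the plus strand.

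Emb encodes embigin, the chaperone of MCT2, and was the member with the fewest counts in a single library. Its counts were 82, 59 and 62 in WT against 12, 32 and 39 in M92KO mice, which correspond to 1.77, 1.53 and 1.30 CPM and to 0.346, 0.977 and 1.07 CPM. Every M92KO library lay below every WT library, and M92KO replicate 1 was far below the other M92KO libraries. The log2 fold change was -0.94 ± 0.37 (SE, 95% interval -1.78 to -0.09), with an edgeR adjusted p of 0.367, a DESeq2 adjusted p of 0.290 and an exact permutation p of 0.1. Without M92KO replicate 1 it was -0.58, with an edgeR adjusted p of 0.280. An unadjusted p under 0.05 was kept in 3 of the 6 fits that left out a library, and lost without WT replicate 1 (-0.82), without WT replicate 2 (-0.94) and without M92KO replicate 1. With the study's limma steps on the counts the value was -1.03. With the same steps on CPM, where adding 1 before the log2 shrinks differences of low genes, it was -0.49.

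Emb is expressed by several non-muscle cells, so marker lists of such cells are given beside it. The 7 fibroblast markers summed to between 1726 and 2289 CPM in WT and between 1170 and 1615 CPM in M92KO mice. At an unadjusted p under 0.05, 3 of the 7 were lower (Dcn, Col1a1 and Col1a2), against 6.92% of all genes. Of 9 leukocyte markers, 7 were tested, and Ly6g was at 0 in all libraries. Of the 7, 2 were lower (Ptprc and Cd14), while 2 had a log2 fold change above 0 and 5 below. The list summed to between 29.9 and 31.6 CPM in WT and between 21.8 and 30.3 CPM in M92KO mice. The 9 endothelial markers summed to between 1116 and 1201 CPM in WT and between 996 and 1204 CPM in M92KO mice, with 1 lower (Flt1). M92KO replicate 1 had the lowest Emb value and the lowest sum for fibroblast (1170 CPM) and leukocyte markers (21.8 CPM). The same library also had the lowest sum for slow fibre (237 CPM), tendon (92.7 CPM), mural cell (869.6 CPM) and fat cell markers (313 CPM). For endothelial, Schwann cell, red cell, satellite cell and fast fibre markers its sum was not the lowest. Without M92KO replicate 1, 2 of the 7 fibroblast markers were lower and 0 higher. Of the 7 leukocyte markers, 1 was lower and 1 higher in that fit. Over all genes, 8.96% were lower and 9.62% higher in it. The part of these cells in the Emb difference was not tested, and in bulk muscle fewer cells of a type and less RNA per cell cannot be told apart. Emb lies at chr13:117208536-117274415 on the plus strand, and its exons overlap those of Gm17509 on the opposite strand, with the same limit as for Slc16a7.

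Ldha encodes the subunit of lactate dehydrogenase that predominates in glycolytic muscle. Its level was 2527, 2696 and 2902 CPM in WT mice and 3012, 2798 and 2728 CPM in M92KO mice. Only M92KO replicate 1 lay above all WT libraries, and the other M92KO libraries lay between the second and the highest WT value. Fitted on the log2 scale, the fold change was 0.07 ± 0.089 (SE, 95% interval -0.13 to 0.27, edgeR adjusted p = 0.799). The interval ends at 1.21-fold, and with the limma steps of the study the value was -0.0077. Ldha lies at chr7:46841475-46855627 on the plus strand, and 16.6% of the 50-base stretches of its longest coding transcript recur in 14 other annotated genes, among them Ldha-ps and Ldha-ps2, so its counts depend on how shared reads were treated.

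Ldhb encodes the subunit of oxidative muscle and heart. Its level was 181, 186 and 165 CPM in WT mice and 167, 167 and 232 CPM in M92KO mice. M92KO replicate 3 stood above the other 5 libraries, which lay close together. The log2 fold change was 0.09 ± 0.13 (SE, 95% interval -0.21 to 0.39, edgeR adjusted p = 0.830), and without M92KO replicate 3 it was -0.085. Ldhb lies at chr6:142490249-142507957 on the minus strand and shares 27.0% of its 50-base stretches with Gm5514.

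Ldhd encodes the mitochondrial enzyme that oxidizes D-lactate, the mirror form that arises from methylglyoxal. Its level was 72.2, 65.8 and 72.1 CPM in WT mice and 62.7, 66.4 and 72.9 CPM in M92KO mice. The groups overlapped, with the lowest and the highest value both in M92KO mice. Ldhd thus had a log2 fold change of -0.06 ± 0.078 (SE, 95% interval -0.24 to 0.12, edgeR adjusted p = 0.821). Ldhd lies at chr8:111623785-111630374 on the minus strand, and its exons overlap those of Znrf1 on the opposite strand.

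To compare genes with each other, levels were divided by the length of the longest coding transcript, which gives CPM per kb. In WT mice the order was Ldha at 1492 CPM per kb, Bsg at 364, Ldhb at 136, Slc16a3 at 96.8, Ldhd at 30.8, Slc16a1 at 28.3, Slc16a10 at 21.3, Emb at 0.525 and Slc16a7 at 0.104 CPM per kb. Ldha stood at percentile 99.8 of all tested genes on this scale and Slc16a3 at percentile 97.0, while Emb stood at 12.9 and Slc16a7 at 2.41. Among neighbours in this order, the WT libraries overlapped in CPM per kb only for Ldhd (29.0 to 31.8) and Slc16a1 (24.4 to 31.3). In M92KO mice Slc16a3 was at 132, 141 and 133 CPM per kb and Ldhb at 128, 128 and 178 CPM per kb. Slc16a3 thus lay above Ldhb in M92KO replicates 1 and 2 and below it in replicate 3.

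**Figure D3:**
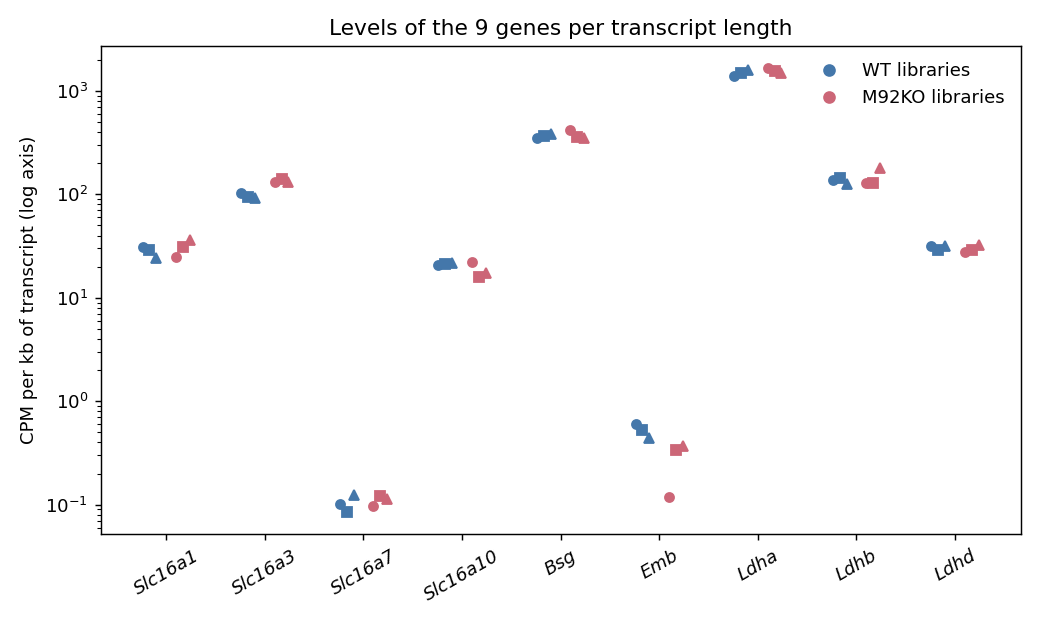
Level per transcript length (CPM per kb, log axis) of the 9 genes in each of the 3 WT (blue) and 3 M92KO (red) libraries. Ldha is highest, at 1392 to 1659.7 CPM per kb, and Slc16a7 and Emb are lowest, at 0.0849 to 0.607 CPM per kb.

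Of the summed CPM per kb of the 4 transporter genes, Slc16a3 made up 66.3%, 65.2% and 66.7% in WT mice and 73.6%, 74.9% and 71.3% in the M92KO libraries. The mean share was 66.1 ± 0.745% in WT and 73.3 ± 1.85% in M92KO mice (SD, n = 3), with no overlap and an exact permutation p of 0.1, the smallest possible. The share of Slc16a10 was 14.6 ± 1.13% in WT and 10.1 ± 2.11% in M92KO mice (exact permutation p = 0.1), and that of Slc16a1 was 19.3 ± 1.498% and 16.5 ± 2.74% (exact permutation p = 0.2). Shares of a sum move together, so these are not separate results. Ldhb made up 8.39 ± 0.932% of Ldha plus Ldhb in WT and 8.48 ± 1.84% in M92KO mice on the same scale (exact permutation p = 1.0).

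A ratio of 2 genes within a library does not depend on library size or scaling, and 7 ratios were compared as differences of log2 ratios, M92KO minus WT. The count ratio of Slc16a3 to its chaperone Bsg was 0.840, 0.740 and 0.691 in WT mice and 0.889, 1.12 and 1.08 in the M92KO libraries. All 3 M92KO libraries were above all 3 WT libraries, a difference of 0.44 on the log2 scale (exact permutation p = 0.1, 0.233 after adjustment over the 7 ratios). The ratio of Slc16a3 to Ldha was 0.177, 0.153 and 0.138 in WT and 0.190, 0.219 and 0.211 in M92KO mice, again without overlap (difference 0.41, exact permutation p = 0.1, adjusted 0.233). Slc16a3 was thus higher relative to the chaperone and to the main lactate dehydrogenase subunit in 3 of 3 M92KO libraries, though no ratio passed the threshold, which this design cannot reach.

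The ratio of Slc16a3 to Slc16a1 was 3.22, 3.17 and 3.72 in WT and 5.21, 4.45 and 3.61 in M92KO mice. M92KO replicate 3 fell within the WT range, and the difference was 0.38 (exact permutation p = 0.2, adjusted 0.350), or 0.25 without M92KO replicate 1. Ldha to Ldhb, the balance of glycolytic and oxidative subunits, was 13.97, 14.5 and 17.6 in WT and 18.0, 16.8 and 11.8 in M92KO mice, a difference of -0.0018 (exact permutation p = 1.0). Slc16a1 differed by 0.06 relative to Bsg (exact permutation p = 0.9) and by 0.03 relative to Ldhb (exact permutation p = 0.8). Emb relative to Bsg was lower in 3 of 3 M92KO libraries by a log2 difference of -1.11 (exact permutation p = 0.1, adjusted 0.233), and by -0.52 without M92KO replicate 1.

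**Figure D4:**
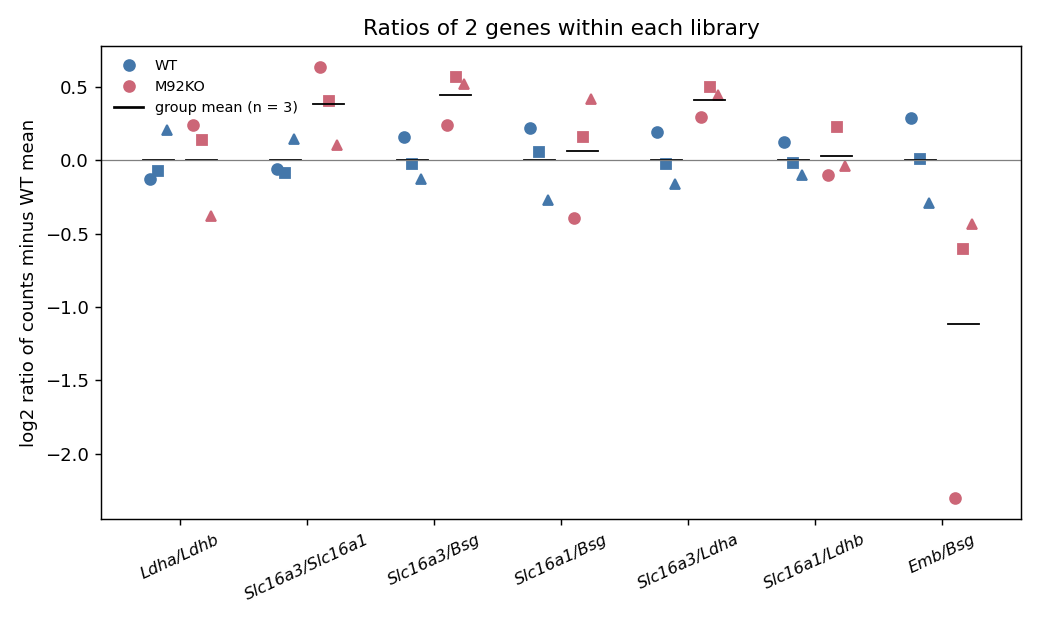
Log2 ratio of the counts of 2 genes in each library, minus the mean of the WT libraries (vertical axis), for 7 pairs, with WT in blue, M92KO in red, marker shape for the replicate and a black line for the group mean (n = 3). The M92KO points lie above the WT points for Slc16a3/Bsg and Slc16a3/Ldha, below them for Emb/Bsg, and overlap them for the other 4 pairs.

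Promoters were looked at because hypoxia-inducible factors are known to bind the core letters ACGTG or GCGTG and E-box factors such as Myc the letters CACGTG, and because both families regulate lactate genes in other settings. RefSeq promoters of GRCm38.p6, from 250 bases before to 50 bases after the start, were found for 7 of the 9 genes (not for Slc16a7 and Bsg). Letters were searched on both strands, and CACGTG contains ACGTG on each strand. ACGTG was found in promoters of 4 of the 7 genes (19.6% of all 32851 promoters), GCGTG in 4 (32.4%) and CACGTG in 3 (7.15%). Emb had none of them. The promoter of Slc16a3 (chr11:120948817-120949116, plus strand) held ACGTG at 2 places, starting 27 and 14 bases before the start, and no CACGTG or GCGTG. Ldha held CACGTG at 2 places, 145 and 48 bases before the start of its first promoter (chr7:46845554-46845853, plus strand). Slc16a1 held 1, at 200 bases before the start (chr3:104638414-104638713, plus strand), and Ldhd held 1, at 139 bases before the start (chr8:111630287-111630586, minus strand). A match is a description of the letters and does not show that a factor binds there. Capitals mark the match.
Slc16a3 first ACGTG: caggcagcggtgACGTGcgcgggggacgt
Slc16a3 second ACGTG: cgtgcgcgggggACGTGccgcgcgacgga
Ldha first CACGTG: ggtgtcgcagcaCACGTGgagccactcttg
Ldha second CACGTG: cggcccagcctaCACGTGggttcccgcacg
Slc16a1 CACGTG: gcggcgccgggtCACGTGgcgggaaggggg
Ldhd CACGTG: gttgacttgtaaCACGTGaagtagctgttg

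A list of 8 genes held factors of these motifs, and transcription factors and coactivators of oxidative genes. Of the 8 (Hif1a, Epas1, Myc, Ppargc1a, Ppargc1b, Esrra, Esrrb and Esrrg), none had an unadjusted p under 0.05, and the median log2 fold change was 0.03. Hif1a, the oxygen-regulated factor, differed by 0.01 ± 0.091 (SE), and Epas1, the gene of the list with the smallest p, by -0.11 ± 0.073 (SE, edgeR adjusted p = 0.602). Without M92KO replicate 1, 3 of the 8 were higher at an unadjusted p under 0.05, against 9.62% of all genes in that fit. Hif1a was at 0.09 in the same fit (edgeR adjusted p = 0.526). These are RNA levels, and hypoxia-inducible factors are controlled mainly through the stability of the protein.

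Around the 9 genes, 9 lists of lactate, pyruvate and proton handling held 56 genes, of which 49 were tested. At an unadjusted p under 0.05, 2 were higher and 4 were lower, none had an edgeR adjusted p under 0.05, and their median log2 fold change was -0.0036 against -0.000081 for all genes. Against the shares of all genes called in each direction (5.47% higher and 6.92% lower), these counts are near the background. Without M92KO replicate 1, 5 were higher and 8 were lower, against 9.62% and 8.96% of all genes in that fit, and 1 had an adjusted p under 0.05 (Car14).

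In the rest of the SLC16 family, 8 of 10 genes were tested, with a median of -0.24. At an unadjusted p under 0.05, 0 were higher and 2 were lower, against 5.47% and 6.92% of all genes. Slc16a9, a carnitine and creatine carrier, was at 12.99, 12.9 and 11.6 CPM in WT and 9.47, 10.3 and 9.53 CPM in M92KO mice, without overlap (log2 fold change -0.36 ± 0.095 SE, edgeR adjusted p = 0.215). Slc16a13, a lactate transporter of liver and other tissues, was at 3.14, 4.66 and 3.27 CPM in WT and 2.45, 2.38 and 2.95 CPM in M92KO mice, again without overlap (-0.50 ± 0.20 SE, edgeR adjusted p = 0.368). Of the sodium-coupled carriers Slc5a8 and Slc5a12 and the lactate receptor gene Hcar1, none had enough counts to be tested, and Slc5a8 was at 0 in all 6 libraries. Ldhc, the testis subunit, was also at 0 in all libraries, and Ldhal6b had too few counts to be tested. Uevld, which encodes a protein with a lactate dehydrogenase-like domain, had a log2 fold change of -0.46 ± 0.14 (SE, edgeR adjusted p = 0.268) with overlapping groups.

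Lactate leaves with protons, which carbonic anhydrases and bicarbonate and sodium exchangers buffer and remove. Of 11 such genes, all were tested, and 2 were higher at an unadjusted p under 0.05, against 5.47% of all genes. Car14, a membrane carbonic anhydrase with its active site outside the cell, was at 45.9, 52.6 and 41.3 CPM in WT and 59.9, 81.4 and 68.5 CPM in M92KO mice. All M92KO libraries lay above all WT libraries, with a log2 fold change of 0.59 ± 0.13 (SE, edgeR adjusted p = 0.179). Its adjusted p was 0.00321 by DESeq2, and 0.0281 by edgeR without M92KO replicate 1, the alternatives under which Slc16a3 also passed the threshold. Slc4a4, a sodium bicarbonate cotransporter, had a value of 0.33 ± 0.14 (SE, edgeR adjusted p = 0.388) with overlapping groups. Car3, the abundant cytosolic form of slow fibres, was at -0.31 ± 0.16 (SE, edgeR adjusted p = 0.507).

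**Figure D5:**
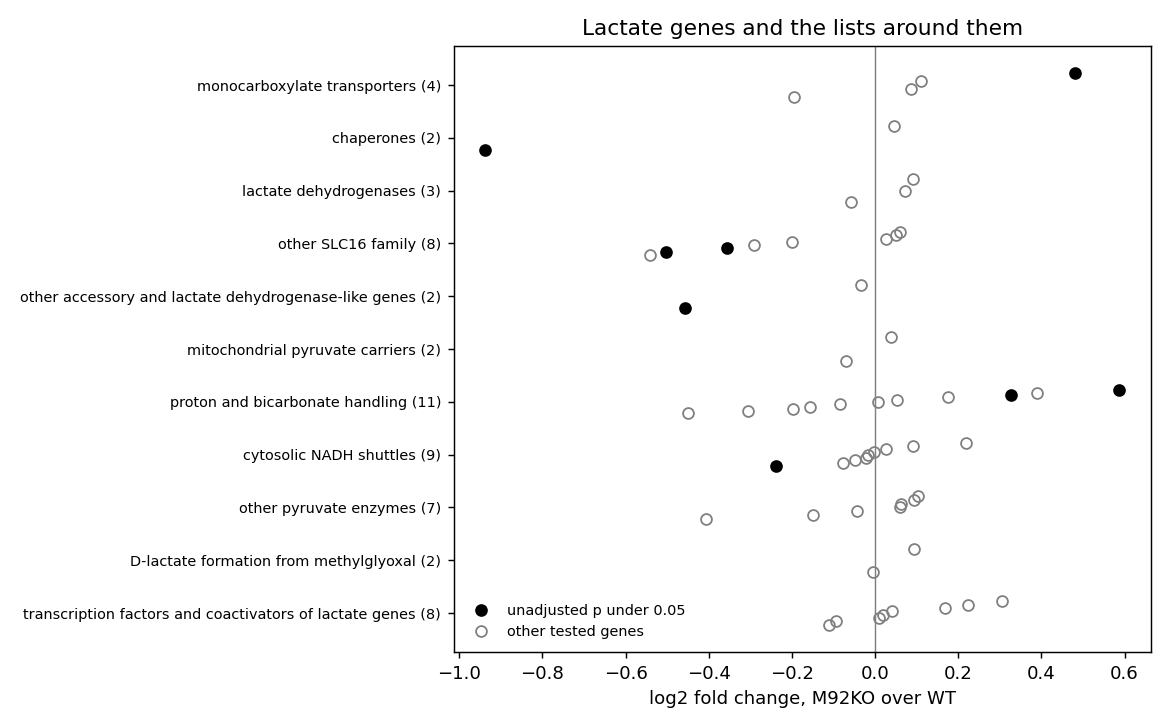
Log2 fold change of M92KO over WT (horizontal axis) for each tested gene of the 3 groups of members and of the lists around them, with the number of tested genes in parentheses, filled where the unadjusted edgeR p was under 0.05. Filled points are Slc16a3 (0.48) and Emb (-0.94) among the members and 2 higher and 4 lower genes among the 49 others.

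Cytosolic NADH made in glycolysis is reoxidized by lactate dehydrogenase or by shuttles into mitochondria. Of 9 shuttle genes, 1 was lower at an unadjusted p under 0.05, against 6.92% of all genes, and the median was -0.02. Gpd1, the cytosolic glycerol-3-phosphate dehydrogenase, was at 675, 701 and 774 CPM in WT and 614, 623 and 588 CPM in M92KO mice, without overlap (-0.24 ± 0.077 SE, edgeR adjusted p = 0.285). The mitochondrial pyruvate carriers had a median of -0.02 with 0 of 2 called, and Mpc2 was at -0.07 ± 0.077 (SE). Other pyruvate enzymes had a median of 0.06 with 0 of 7 called. Their smallest p belonged to Me3, a mitochondrial malic enzyme, at -0.15 ± 0.072 (SE, edgeR adjusted p = 0.453). Glo1 and Hagh, which make D-lactate, the substrate of Ldhd, had a median of 0.04 with 0 of 2 called, and Hagh was at 0.09 ± 0.070 (SE).

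Since MCT4 and Ldha are typical of fast fibres, fibre markers are given beside them. The 10 fast fibre markers summed to between 110971 and 125545 CPM in WT and between 109177 and 121454 CPM in M92KO mice, none was called, 5 had a log2 fold change above 0 and 5 below, and their median was -0.05. The 3 with the smallest p, Casq1, Atp2a1 and Actn3, had values of -0.16, -0.13 and -0.14. The 9 slow fibre markers summed to between 306 and 432 CPM in WT and between 237 and 387 CPM in M92KO mice. At an unadjusted p under 0.05, 1 was lower (Tpm3, -0.31), against 6.92% of all genes. Of these 9, 3 had a log2 fold change above 0 and 6 below, with a median of -0.23, and the next smallest p-values belonged to Atp2a2 (-0.23) and Tnnt1 (-0.33), neither of them called. Fast fibre markers thus summed to far more than slow fibre markers in every library, which does not by itself identify the muscle as gastrocnemius. The part of fibre composition in the Slc16a3 difference was not tested.

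Other marker lists are given with their calls at an unadjusted p under 0.05, against 5.47% of all genes higher and 6.92% lower. None of their genes had an edgeR adjusted p under 0.05. The part of these lists in the differences of the 9 genes was not tested. Tendon markers summed to between 99.2 and 124 CPM in WT and between 92.7 and 113 CPM in M92KO mice, with 3 of 5 lower (Tnmd -0.91, Fmod -0.71 and Scx -0.37). Schwann cell markers summed to between 128 and 173 CPM in WT and between 127 and 131 CPM in M92KO mice, with 4 of 7 lower, among them Mal (-0.55), Mbp (-0.39) and Pmp22 (-0.23). Satellite cell markers summed to between 30.1 and 33.4 CPM in WT and between 37.6 and 40.8 CPM in M92KO mice, with Pax7 (0.56) and Cdh15 (0.32) higher and Calcr (-0.90) lower of 4. Mural cell markers summed to between 997 and 1057 CPM in WT and between 869.6 and 976 CPM in M92KO mice, with Cspg4 (0.43) higher and Rgs5 (-0.19) lower of 4, and Acta2 at -0.03. Red cell markers, in 5 tested genes, and fat cell markers, in 7, had medians of 0.66 and 0.62, none called, with sums that overlapped (74.0 to 223 against 143 to 336 CPM and 315 to 364 against 313 to 395 CPM). Their smallest p-values belonged to Hbb-bt (0.70), Hba-a1 (0.67) and Hbb-bs (0.66), and to Cidec (0.95), Cfd (0.84) and Retn (0.97). In the other lists given beside Emb, the remaining genes of the rule were Cdh5 (-0.21), Cldn5 (-0.48) and Cd68 (0.42), none of them called.

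Feeding state alters fuel genes in muscle, so fasting-responsive genes were listed too. Of 8, 5 were lower and 0 higher at an unadjusted p under 0.05, against 6.92% and 5.47% of all genes. The median was -0.62, and the list summed to between 1833 and 3008 CPM in WT and between 1117 and 1752 CPM in M92KO mice. Pdk4, which encodes a kinase that inhibits pyruvate dehydrogenase, was at 864, 1775 and 1251 CPM in WT and 754, 481 and 435 CPM in M92KO mice. All M92KO libraries lay below all WT libraries (-1.22 ± 0.28 SE, edgeR adjusted p = 0.179), and without M92KO replicate 1 the value was -1.501 (edgeR adjusted p = 0.0332). Ucp3 and Cdkn1a had values of -0.999 and -0.82 with overlapping groups. Whether the overnight fast that the study's methods describe applied to these mice is not stated, and the part of feeding state in the Slc16a3 difference was not tested.

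Genes whose pattern was most like that of Slc16a3 were ranked by the root mean square difference of log2 CPM, each gene centred on its mean, over the 6 libraries and 8744 genes of at least 10 CPM on average. The 5 nearest were Dpy19l3 (0.0519), Rhbdl1 (0.0545), Optn (0.0609), Tceal5 (0.0637) and Slc2a1 (0.0645). All 5 were higher in every M92KO library than in every WT library, which the likeness to Slc16a3 itself requires. Slc2a1, the basal glucose transporter GLUT1, was at 9.33, 8.34 and 8.86 CPM in WT and 11.5, 12.3 and 11.2 CPM in M92KO mice (log2 fold change 0.40 ± 0.097 SE). Of the other members with at least 10 CPM, Ldha came nearest to Slc16a3, at a difference of 0.237 and place 2822, followed by Slc16a1 at 0.254 and Bsg at 0.256. Slc16a10 was the farthest of them, at 0.390 and place 8022.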

How the data were processed

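The authors deposited raw counts of reads per gene symbol for 6 Gas libraries (3 WT, 3 M92KO), made per the labels from total RNA with an RNeasy kit and a SMARTer mRNA kit. The submitters' processing notes list GRCm38 and mm10, and the aligner, counter, annotation and strand setting are not given in the sources used here. Counts were filtered with filterByExpr (minimum count 10, total 15), TMM-scaled and tested in edgeR 4.0.16 (R 4.3.3) by its quasi-likelihood test of genotype, on 15788 genes together. DESeq2 1.42.0, limma 3.58.1 with the study's steps, other filters and scalings, GC and length offsets (lowess span 0.3), a replicate block and fits that left out each library were alternatives. Ratios used an offset of 0.5 counts and exact two-sided permutation tests. Intervals and the floor of 3 counts (0.0622 to 0.0905 CPM) cover counting error and the spread between samples only. Code was tested on simulated counts of 15788 genes. At an adjusted p under 0.05, edgeR made 11 false calls there, DESeq2 30 and limma 2. Of 50 genes changed 1.5-fold, edgeR found 26, DESeq2 31 and limma 2. Of 50 changed 2-fold they found 39, 42 and 33, of 50 changed 3-fold 43, 44 and 40, and of 50 changed 4-fold 48, 48 and 45. DESeq2 thus made more false calls than edgeR for a similar number found, a limit on its calls of Slc16a3 and Car14.

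Of 34714 symbols, 25731 matched GENCODE M21 directly and 433 by a synonym, and those without a match got no length. Genes named are the 9 members, pathway genes with an unadjusted p under 0.05 or the smallest p of their list, up to 3 genes with the smallest p per marker list, and the 5 nearest to Slc16a3. Car3, Hif1a, the genes named only as list members, Slc5a8, Ldhc and Ly6g were named after their values were seen or for being at 0. Members and lists were chosen with earlier results of these data known. Same-numbered WT and M92KO libraries deviated with correlations of 0.0806, 0.0376 and 0.0151 over genes, so the numbers were not used as pairs. Protein sequences, the reads and the study's other assays were not used here. Tables and exact tests came from Python 3.11.15 (scipy 1.17.1, pandas 2.3.3, numpy 2.4.6) and plots from matplotlib 3.10.9.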

Additional observations from a re-analysis of the deposited data

How the results depend on the processing

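Of 135 pairs of a member and an alternative, 124 kept direction and side of the threshold, 3 passed the threshold and 8 turned in sign. Slc16a3 passed with DESeq2 (0.48) and, with Slc16a10 (-0.35), without M92KO replicate 1 (0.50), where leaving out a library gave 0.45 to 0.53 for Slc16a3 and -0.35 to -0.099 for Slc16a10. Signs turned for Bsg (-0.0093 with the limma steps on counts, -0.010 on CPM) and Ldha (-0.0077 and -0.0066), and in fits without 1 library for Slc16a1 (-0.021 to 0.24), Slc16a7 (-0.034 to 0.23), Bsg (-0.043 to 0.098) and Ldhb (-0.085 to 0.17). The ratios Ldha/Ldhb (-0.12 to 0.19), Slc16a1/Bsg (-0.12 to 0.29) and Slc16a1/Ldhb (-0.071 to 0.094) also turned there, as did Cd68 (-0.043 to 0.71), Retn (-0.062 to 1.71) and Acta2 (-0.18 to 0.070). None of these had passed the threshold, and the cause was not tested.

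Members with an adjusted p under 0.05 numbered 1 with DESeq2 and 0 to 2 without a library. Pathway genes numbered 1 with DESeq2 and 0 to 1. At an unadjusted p under 0.05, without a library, 1 to 5 pathway genes were higher and 3 to 8 lower, their median was -0.038 to 0.022, and 0 to 1 members were lower, with 0 under both sets of limma steps. Over all genes, those with an adjusted p under 0.05 numbered 308 with DESeq2, 6 without a filter, 42 and 8 with the limma steps on counts and CPM, 2 with the replicate block and 401 without M92KO replicate 1, where 2984 had an unadjusted p under 0.05. The limma steps moved the split of all genes from 863 higher and 1092 lower to 1244 and 1043.

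With the replicate block, Slc16a3 was at 0.48 (edgeR adjusted p = 0.182), Emb at -0.99 (0.458), and 1 pathway gene was higher in place of 2. No member's call changed under the block. WT replicate 3 correlated best with M92KO replicate 2 (0.0365), not with its own number.

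Depth limits Slc16a7 and Emb, with 12 to 82 counts per library. The exact tests of 3 against 3 cannot pass 0.05.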
